A study of Rattus norvegicus with 64 samples.

Results

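The change in gene expression between 30 and 90 days after surgery was described in rat bladders reconstructed with BAM seeded with ASCs. The members are the 16 arrays that the sample labels assign to this graft at these follow-up times, 8 at day 30 and 8 at day 90, of the 64 arrays of the series. BAM (bladder acellular matrix) is bladder wall from which the cells were removed, and ASCs are stromal cells isolated from adipose tissue. Male Wistar rats underwent hemicystectomy, the removal of a part of the bladder, and the defect was closed with a graft. ASCs came from the retroperitoneal fat of syngeneic male Wistar rats and were seeded on BAM at the third passage. For the comparison with unseeded grafts, 16 further arrays were used, 8 at day 30 and 8 at day 90, from rats that received BAM without cells. The reconstructed wall was separated from native bladder before RNA isolation, and each array holds the RNA of 1 rat. Donors and recipients had the same sex and strain, so RNA of grafted cells and RNA of the host cannot be told apart. No native bladder of an unoperated rat is among the samples analysed here.

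A matrix graft in the bladder is covered by urothelium that grows in from the margin, and detrusor smooth muscle, vessels and nerves follow more slowly into the stroma. Early tissue is rich in dividing cells, macrophages and provisional matrix with fibronectin, tenascin and matrix metalloproteinases. In mature bladder wall, contractile proteins of smooth muscle are abundant in the detrusor, uroplakins form the plaques of the umbrella cells at the surface of the urothelium, and keratin 5 and p63 mark its basal cells.

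Gene expression was measured on 1-color Agilent arrays. A level below is the log2 processed signal of a probe less the 75th percentile of its array, so that 1 unit is a 2-fold difference and only levels of the same probe are compared. The share of gene spots well above background ranged from 74.1% to 95.6% over the arrays of day 30 and from 54.3% to 64.6% over those of day 90. The local background was 48 to 52 at day 30 and 99 to 120 at day 90, and 531 to 641 and 334 to 563 gene spots were saturated. The lowest level well above background had a median of -7.16 over the arrays of day 30 and of -6.03 over those of day 90. Each group lay on 1 slide, and the days were scanned on different dates, so that day, slide and scan date cannot be told apart in the comparison of day 90 with day 30. Levels of the spike-in controls, added RNA that does not come from the tissue, were 0.41 to 1.26 higher at day 90 after scaling (10 probes, median 0.61) and between -0.01 and 0.83 higher before scaling (median 0.18). Therefore only probes well above background on all 16 arrays were tested, which were 13783 of 30367 gene probes and 8231 of the 15715 named genes. Arrays of the same day correlated across all gene probes with a Pearson r of 0.964 to 0.993 at day 30 and 0.960 to 0.991 at day 90, where probes are not independent replicates. The precision is limited by the number of arrays. On many genes replicate 3 of day 90 stood apart, as replicates 1 and 7 of day 30 did on fewer genes, and counts of lists without these 3 arrays are given where they differ by more than 1.5 times.

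The number of differentially expressed genes (DEGs), probes that changed more than 1.5-fold at an adjusted p under 0.01, was 2944 by limma with Benjamini-Hochberg adjustment, which is 21.4% of the probes tested. Of these, 1780 were higher and 1164 lower at day 90, and the median size of the change among them was 0.84 on the log2 scale. A change over 2-fold was found for 608 higher and 375 lower DEGs. After quantile normalization 3029 probes were DEGs, 1960 higher and 1069 lower, of which 2725 were shared with the first set and all shared ones had the same direction. The median change of all probes tested was 0.05. When arrays were scaled to the median of their gene spots this median was 0.17 and 2616 probes were higher and 779 lower, and when probes well above background on all arrays of only 1 of the 2 days were included, 1854 were higher and 2833 lower. The share of higher DEGs was thus 60.5%, 77.0% and 39.6% in the 3 settings. Among named genes with 1 probe each, 1028 were higher (12.5%) and 733 lower (8.91%) at day 90, with a median change of 0.02. These shares are the background for the counts of each list below. The levels of the 2 days did not overlap for 1748 genes (21.2%), of which 997 were higher and 751 lower.

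**Figure D1:**
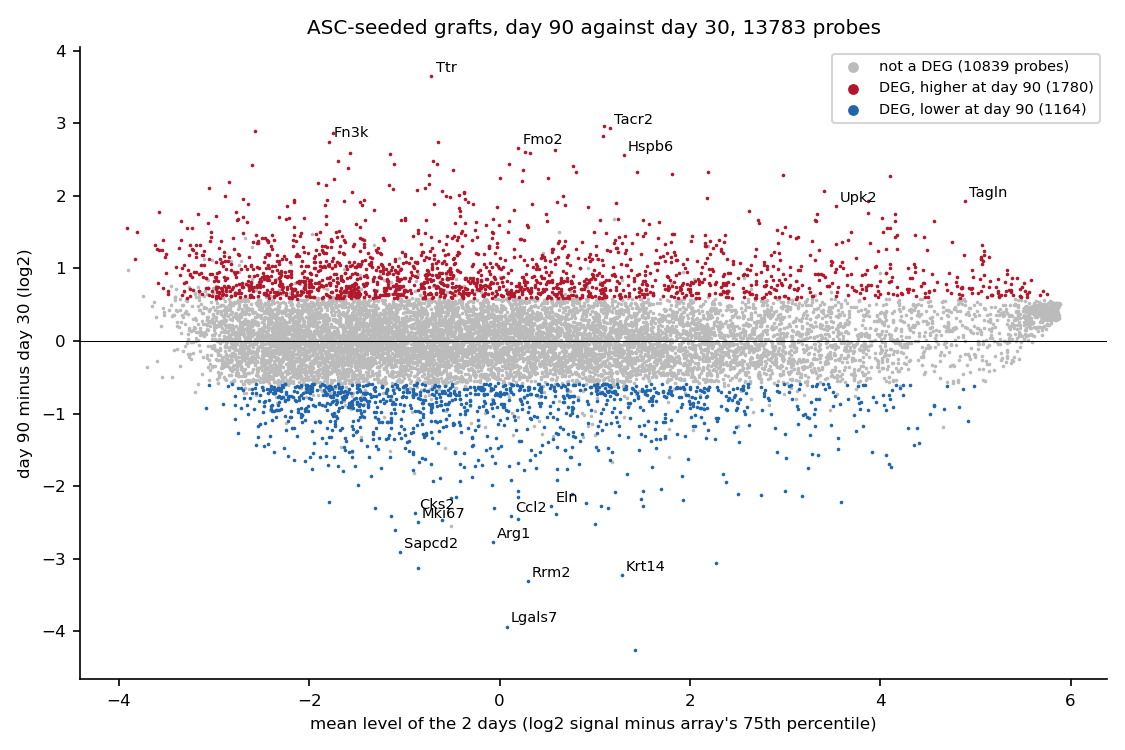
Change from day 30 to day 90 in bladders reconstructed with BAM seeded with ASCs (vertical axis, log2, day 90 minus day 30) against the mean level of the 2 days (horizontal axis, log2 signal less the 75th percentile of its array), 1 dot for each of 13783 probes. The 1780 higher and 1164 lower DEGs are colored, and the median of all probes was 0.05.

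Genes of smooth muscle rose almost without exception. Of 22 tested smooth muscle genes 21 were higher and 0 lower at day 90, with a median change of 1.36, against 12.5% higher and a median of 0.02 for all named genes. For 13 of the 22 the levels of the days did not overlap, against 21.2% of all named genes in either direction. In RNA of a whole wall, fewer cells of a type and less RNA per cell cannot be told apart. Desmin (Des), the intermediate filament protein of muscle, had levels between 2.87 and 3.70 at day 30 (median 3.32) and between 4.15 and 5.51 at day 90 (median 4.79). All arrays of day 90 were above those of day 30, a 2.83-fold rise (limma adjusted p = 4.58e-06, log2 scale standard error 0.185). Smoothelin (Smtn), a cytoskeletal protein of contractile smooth muscle, was between 1.92 and 3.48 (median 3.08) at day 30 and between 4.28 and 5.38 (median 4.59) at day 90, a 3.40-fold rise. Transgelin (Tagln), an actin-binding protein, rose from a median of 4.00 (3.00 to 4.42) to 5.75 (5.54 to 6.41), or 3.80-fold. The smooth muscle myosin heavy chain Myh11 rose from 4.70 (3.50 to 4.94) to 5.62 (5.47 to 6.21), or 2.23-fold. Neither pair of ranges overlapped, but Tagln was saturated on 3 and Myh11 on 7 arrays.

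The same direction was found along the contractile apparatus and its control. Calponin (Cnn1) rose by 1.35, alpha smooth muscle actin (Acta2) by 0.78, leiomodin (Lmod1), which nucleates actin filaments, by 1.80, and synemin (Synm), a partner of desmin, by 1.66. Myocardin (Myocd), the coactivator of serum response factor at smooth muscle genes, was between -3.80 and -2.23 at day 30 (median -2.66) and between -2.44 and -0.84 at day 90 (median -1.68). The ranges of Myocd overlapped slightly, and its log2 fold change was 1.21 (standard error 0.251, limma adjusted p = 6.41e-04). Receptors by which the detrusor contracts rose as well. The purinergic receptor P2rx1 rose 5.12-fold, from a median of -1.38 (-4.12 to -0.55) to 0.71 (-0.82 to 1.69), while the muscarinic receptors Chrm2 and Chrm3 rose by 1.56 and 1.09. Gamma-2 smooth muscle actin (Actg2) was the single tested gene of the list that was not a DEG. Its change was 0.38 (adjusted p = 0.00672, fold change 1.30), it was saturated on 15 of 16 arrays, and after quantile normalization it was -0.03. The 224 probes saturated on all 16 arrays had a median change of 0.42, while the mean 75th percentile used for scaling differed by -0.43 between the days (10.5 ± 0.0704 at day 30 and 10.1 ± 0.297 at day 90, SD, n = 8, log2 signal).

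Of 23 smooth muscle genes on the array 1 was too dim to be tested, and the count of 21 higher genes was the same without any single array and without the 3 arrays that stood apart. The lowest mean level of the 22 genes at day 30 was that of replicate 7, which had the lowest value of its group for Myh11, Smtn, Myocd, Tagln and Synm, and the highest at day 90 was that of replicate 3. Relative to the mean of day 30, the mean over the 22 genes ranged from -0.78 to 0.36 at day 30 and from 0.92 to 1.90 at day 90.

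**Figure D2:**
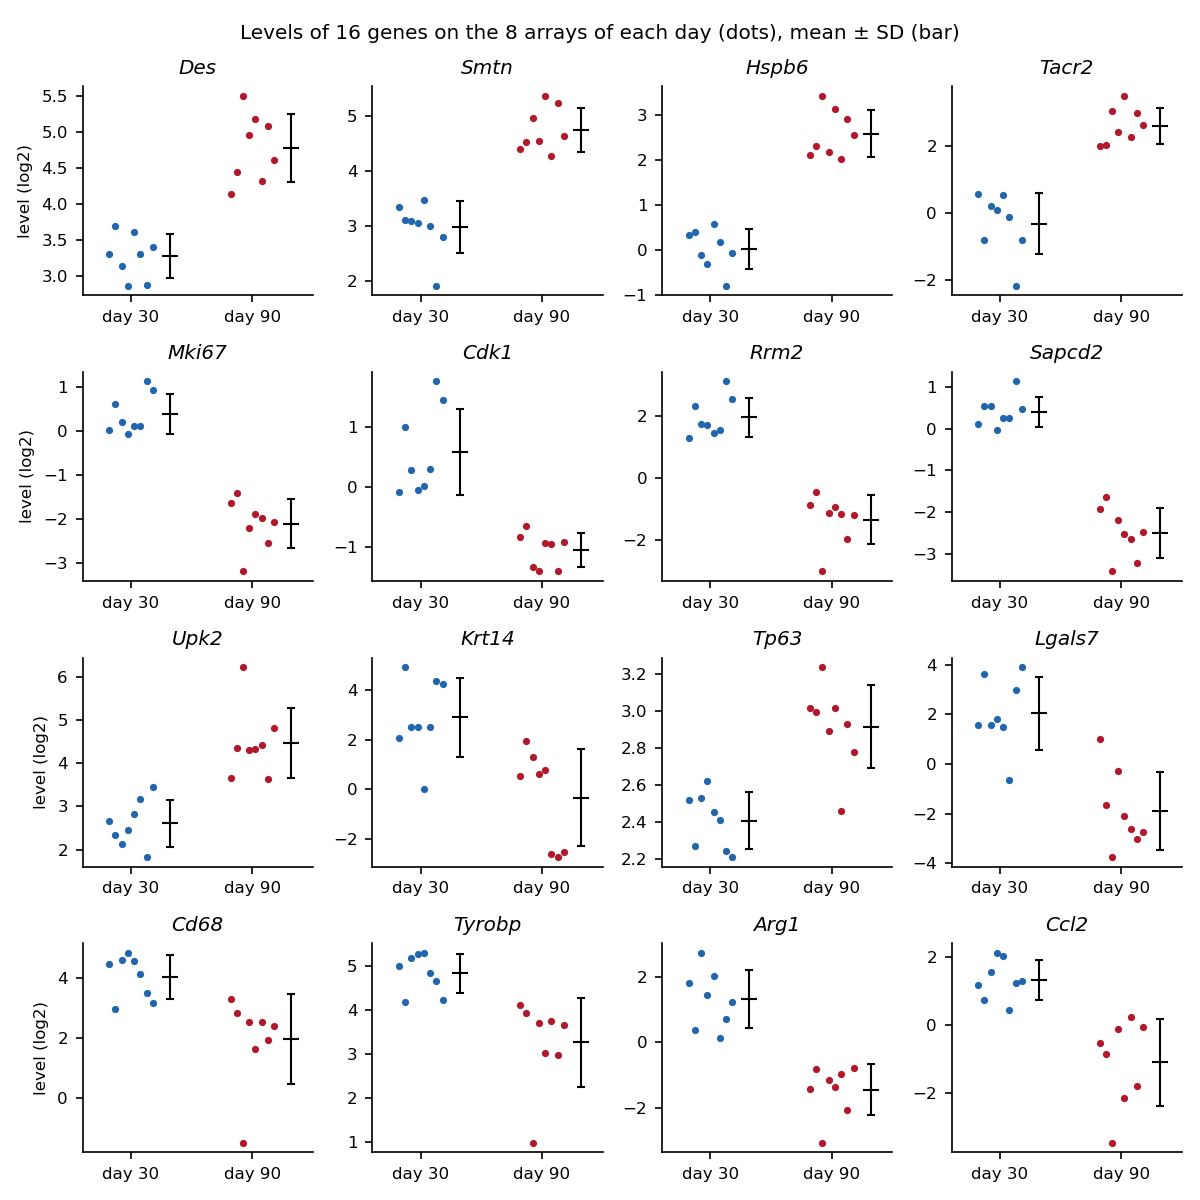
Levels of 16 genes (vertical axes, log2 signal less the 75th percentile of its array) at day 30 and day 90, 1 dot for each of the 8 arrays a day, with the mean ± SD. Des, Smtn, Hspb6 and Tacr2 were higher and Mki67, Cdk1, Rrm2 and Sapcd2 lower on every array of day 90 than on any of day 30, while Krt14, Lgals7 and Cd68 had overlapping ranges.

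Genes of the cell cycle fell. Of 55 genes of the list 49 were on the array and 18 were tested, of which 12 were lower and 0 higher at day 90, with a median change of -1.25, against 8.91% lower of all named genes. The levels of 13 of the 18 did not overlap between the days, against 21.2% of all named genes in either direction. Mki67, which encodes the proliferation antigen Ki-67, had levels between -0.06 and 1.14 at day 30 (median 0.17) and between -3.19 and -1.39 at day 90 (median -2.02), a 5.66-fold fall (log2 fold change -2.50, standard error 0.234, limma adjusted p = 2.55e-07). Cdk1, the kinase that drives entry into mitosis, was between -0.09 and 1.77 at day 30 (median 0.29) and between -1.40 and -0.65 at day 90 (median -0.94), a 3.12-fold fall. Rrm2, the small subunit of ribonucleotide reductase that makes deoxyribonucleotides for DNA synthesis, fell 9.92-fold from a median of 1.71 (1.27 to 3.12) to -1.17 (-3.03 to -0.46). On each of these 3 genes every array of day 90 was below every array of day 30. Other lower genes of the list were Cks2 (-2.37), a subunit of cyclin-dependent kinases, Cdc45 (-1.99), a part of the replicative helicase, the mitotic kinase Aurka (-1.79), cyclin E1 (Ccne1, -1.71) and thymidine kinase (Tk1, -1.55). Chaf1b, a chromatin assembly factor of replicating cells that was not in the list, fell by 2.31, from a median of -0.27 to -2.48. Sapcd2, also outside the list, fell 7.49-fold, from levels of -0.04 to 1.13 to levels of -3.41 to -1.64. Not DEGs were Pcna (-0.42), Mcm2 (-0.47), Mcm7 (0.10), E2f1 (-0.46), Foxm1 (-0.58) and Kif23 (-0.94).

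Most cell cycle genes could not be tested because they were dim at day 90. Of the 31 genes left out, 11 were well above background on all 8 arrays of day 30 and on 0 arrays of day 90, and 15 others on all arrays of day 30 and some of day 90. For the former only an estimate can be given, in which the mean of day 30 was set against a mean at day 90. On each array of day 90 the higher of the probe's level and the lowest level well above background was taken. That lowest level is a value of the array and not the detection limit of each probe, so the estimate is not a strict bound. Cyclin B1 (Ccnb1), the partner of Cdk1, was 7.58-fold lower at day 90 by this estimate (measured means -2.14 and -5.07), without a test. By the same estimate the mitotic kinesin Kif11 was 8.61-fold, the transcription factor Mybl2 8.21-fold, the spindle checkpoint kinase Ttk 7.37-fold and Bub1b 5.91-fold lower. The kinesin Kif2c, the spindle factor Tpx2 and the kinase Aurkb had estimates of 4.57-fold, 4.83-fold and 3.79-fold. Ccnb1 and Aurkb are defining genes of the list, and the others were picked from it after their values were seen. Over the whole array 638 genes were well above background on all arrays of day 30 and none of day 90, and 0 genes the other way, where the floor was higher at day 90 by the values above.

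The promoters of 3 defining genes of this list are shown, from 250 bases before to 50 bases after the start of transcription in RefSeq on GRCr8. Mki67 and Cdk1 were lower at day 90 by the test, while Ccnb1 was not tested and was lower only by the estimate above. Aurkb, another defining gene, had no promoter of this length among those searched. Capitals mark CCAAT, or ATTGG where it lies on the other strand, and the cell cycle element searched as TTTGAA or TTCGAA on both strands. In Mki67 the second element runs into a CCAAT on the other strand, so that a single stretch of capitals holds both.
Mki67 (chr1:199952544-199952843, minus strand): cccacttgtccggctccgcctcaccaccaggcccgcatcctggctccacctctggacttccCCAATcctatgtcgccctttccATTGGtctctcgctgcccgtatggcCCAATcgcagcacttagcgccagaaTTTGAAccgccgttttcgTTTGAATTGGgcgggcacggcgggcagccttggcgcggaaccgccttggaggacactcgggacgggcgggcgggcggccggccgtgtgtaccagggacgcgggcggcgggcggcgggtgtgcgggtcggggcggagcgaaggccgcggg
Ccnb1 (chr2:33655176-33655475, minus strand): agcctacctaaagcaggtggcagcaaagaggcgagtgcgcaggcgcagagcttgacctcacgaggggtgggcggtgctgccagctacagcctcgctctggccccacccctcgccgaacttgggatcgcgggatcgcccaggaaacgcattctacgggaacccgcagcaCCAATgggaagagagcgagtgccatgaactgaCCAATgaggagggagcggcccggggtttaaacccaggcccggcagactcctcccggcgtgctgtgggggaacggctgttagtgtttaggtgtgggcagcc
Cdk1 (chr20:19265043-19265342, plus strand): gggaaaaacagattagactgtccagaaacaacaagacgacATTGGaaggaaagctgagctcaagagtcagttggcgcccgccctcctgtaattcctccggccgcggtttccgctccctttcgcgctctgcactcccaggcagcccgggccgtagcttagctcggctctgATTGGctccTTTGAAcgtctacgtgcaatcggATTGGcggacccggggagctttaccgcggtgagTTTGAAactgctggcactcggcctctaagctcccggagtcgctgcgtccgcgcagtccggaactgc
Mki67 holds CCAAT 4 times and the element 2 times, Cdk1 3 times and 2 times, and Ccnb1 CCAAT 2 times and the element 0 times. Among the promoters of the same length of all genes of the table (33469), 37.5% hold CCAAT and 19.7% the element. Among the 37 promoters of cell cycle genes on the array 28 hold CCAAT (75.7%) and 20 the element (54.1%). The CArG box, the site of serum response factor, was searched only in the strict form CCWWWWWWGG, where W is A or T. This form was found in 1 of 18 smooth muscle promoters of this length (5.56%) and in 1.64% of all promoters. Forms that differ from it by a letter were not searched, so a promoter without a match may still hold such a site. A match of letters is a description of the sequence only.

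In the urothelium list, 3 of 26 tested genes were higher (11.5%, against 12.5% of all named genes) and 2 lower (7.69%, against 8.91%). The other 21 were not DEGs, and the median change was 0.07. With scaling to the median of gene spots 5 were higher, and 1 was with all 64 arrays in the fit or under the 2-way analysis of variance of the methods. Without a filter on dim probes 4 were lower. Among the plaque proteins of umbrella cells, uroplakin 2 (Upk2) rose 3.63-fold, from levels of 1.82 to 3.45 (median 2.56) to levels of 3.63 to 6.23 (median 4.34), which did not overlap (log2 fold change 1.86, standard error 0.316, limma adjusted p = 1.05e-04). Uroplakin 1a (Upk1a) rose 1.97-fold, from a median of 4.71 (4.18 to 5.64) to 5.81 (5.22 to 6.68), with overlapping ranges and saturation on 3 arrays, and it was not a DEG with all 64 arrays in the fit (adjusted p = 0.0577). Upk3a changed by 0.50 and did not reach the fold threshold, with saturation on 14 arrays. Upk1b was at 0.20 by its brightest probe (saturated on 8 arrays, -0.10 after quantile normalization), while its other probe was a DEG with a change of 1.05. The transcription factor Gata3 of urothelial differentiation rose by 0.76, from a median of -0.25 to 0.55, but it was not a DEG when all 64 arrays shared 1 estimate of the spread (adjusted p = 0.0527).

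Keratin 14 (Krt14), a keratin of basal cells that rises in regenerating urothelium, fell. Its levels were between 0.01 and 4.93 at day 30 (median 2.52) and between -2.73 and 1.97 at day 90 (median 0.59), a 9.33-fold fall on the means (log2 change -3.22, standard error 0.810, limma adjusted p = 0.00277) with overlapping ranges. The call of Krt14 was lost under the 2-way analysis of variance of the methods (adjusted p = 0.0121). Of other basal markers, Krt5 was at -0.75 (adjusted p = 0.181) and Tp63 at 0.51 (adjusted p = 2.94e-04, fold change 1.42). Krt17, a keratin of the same list, was well above background on 8 arrays of day 30 and 6 of day 90 and was not tested, with mean levels of 0.99 and -2.31. Krt20 of umbrella cells was at 1.33 (adjusted p = 0.1001), with replicate 3 of day 90 far above the others. Further epithelial genes were among the largest falls of all genes. Galectin-7 (Lgals7), a lectin of stratified epithelium, fell 15.3-fold, from a median of 1.70 (-0.64 to 3.91) to -2.35 (-3.75 to 1.00), and the uroplakin-like gene Upk3bl1 fell 5.77-fold, from a median of 2.42 (0.37 to 3.81) to -0.57 (-1.41 to 1.11). Connexin 26 (Gjb2) fell 5.20-fold, from a median of 1.60 to -0.61. The dual oxidase Duox2 had a difference of -3.12 (adjusted p = 0.00651) that rested on a few high arrays of day 30, whose levels ran from -2.02 to 4.90 with a median of -0.72, against -2.80 to -2.16 at day 90. Its call was lost without replicate 3 or 7 of day 30, without any single array of day 90, without the 3 arrays that stood apart, without a filter, with the replicate number as a block and after normexp correction, with an adjusted p of 0.0103 or more.

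Genes of macrophages and of acute inflammation fell where they changed. Of 21 tested macrophage genes 5 were lower (23.8%, against 8.91% of all named genes), 0 higher and 16 not DEGs, with a median change of -0.61. Cd68, a lysosomal protein of macrophages, had levels between 2.97 and 4.85 at day 30 (median 4.31) and between -1.51 and 3.30 at day 90 (median 2.48), a 4.20-fold fall (log2 fold change -2.07, standard error 0.534, limma adjusted p = 0.00332). Replicate 3 of day 90 was far below the other arrays, and without it the change was -1.57. Trem2 and its signaling partner Tyrobp fell by 2.12 and 1.57, and the call of Trem2 was lost in 6 of 16 fits that left out a single array (adjusted p up to 0.0119), without a filter and with the replicate number as a block. Arginase 1 (Arg1), an enzyme of macrophages in wound repair, fell 6.84-fold, from a median of 1.34 (0.14 to 2.75) to -1.26 (-3.08 to -0.78), without overlap. Cd14, the co-receptor for lipopolysaccharide, fell by 1.32. Csf1r (-0.57), Cd163 (-0.23) and Gpnmb (-1.19), other macrophage markers, were not DEGs, although the dimmer probe of Csf1r was (-0.86), and Cd163 was at 0.03 without the 3 arrays that stood apart. The mean over the list, relative to day 30, was -0.40 to 0.32 at day 30 and -0.93 to -0.23 at day 90 apart from replicate 3, where it was -2.59.

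The neutrophil list had only 2 testable genes, and both fell. The interleukin-1 antagonist Il1rn fell 4.64-fold, from a median of 4.73 (3.93 to 5.34) to 2.73 (1.64 to 3.22), without overlap, and the decoy receptor Il1r2 fell by 1.65 (adjusted p = 0.00380), a call that was lost after quantile normalization and after normexp correction. The other 23 genes of the list on the array were too dim to be tested. S100a8 and S100a9, the calgranulins of neutrophils, were well above background on 8 arrays of day 30 and on 3 and 4 of day 90, and Il1b and Cxcl1 on 8 arrays of day 30 and on 7 and 6 of day 90. Cxcl6, a chemokine that attracts neutrophils, was well above background on all arrays of day 30 and none of day 90. By the estimate used for dim cell cycle genes, without a test, it was 9.38-fold lower, and the receptor Trem1 was 5.43-fold lower. These 2 genes were picked after their values were seen.

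Among chemokines and their receptors 4 of 13 tested genes were higher (30.8%, against 12.5% of all named genes) and 2 lower (15.4%, against 8.91%). Another 15 on the array were too dim to be tested, of which 12 were well above background on all arrays of day 30 and only some of day 90. Without a filter on dim probes 7 of the list were lower, and 8 with probes well above background on all arrays of 1 day. Ccl2, which attracts monocytes, fell 5.33-fold, from a median of 1.27 (0.44 to 2.12) to -0.69 (-3.45 to 0.23). The fractalkine receptor Cx3cr1 rose 1.90-fold, from a median of -1.06 to -0.01, and Cxcl14, a chemokine of epithelium and stroma, rose 2.26-fold, from a median of 4.45 to 5.45, but the latter had an adjusted p of 0.0104 after quantile normalization. MHC class II genes were lower at 2 of 7 tested (RT1-Db1 by 1.61 and RT1-DMb by 1.27), with 0 calls when the replicate number was a block, while Cd74 was at -0.63 and RT1-Da at -0.60. Of 13 tested complement genes C6 fell 4.43-fold and clusterin (Clu), an inhibitor of complement lysis, rose 2.36-fold. C3 was at -1.66 with a limma adjusted p of 0.0433. Without a filter on dim probes 4 complement genes were lower, and 4 with probes well above background on all arrays of 1 day. Of 20 tested interferon response genes 1 was higher (Oas1b, 0.81) and 0 lower, with Mx1 at -0.66, Isg15 at -1.14 and Irf7 at -0.77. Another 12 on the array were not tested. Without a filter on dim probes 2 of this list were lower, and 3 with probes well above background on all arrays of 1 day.

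**Figure D3:**
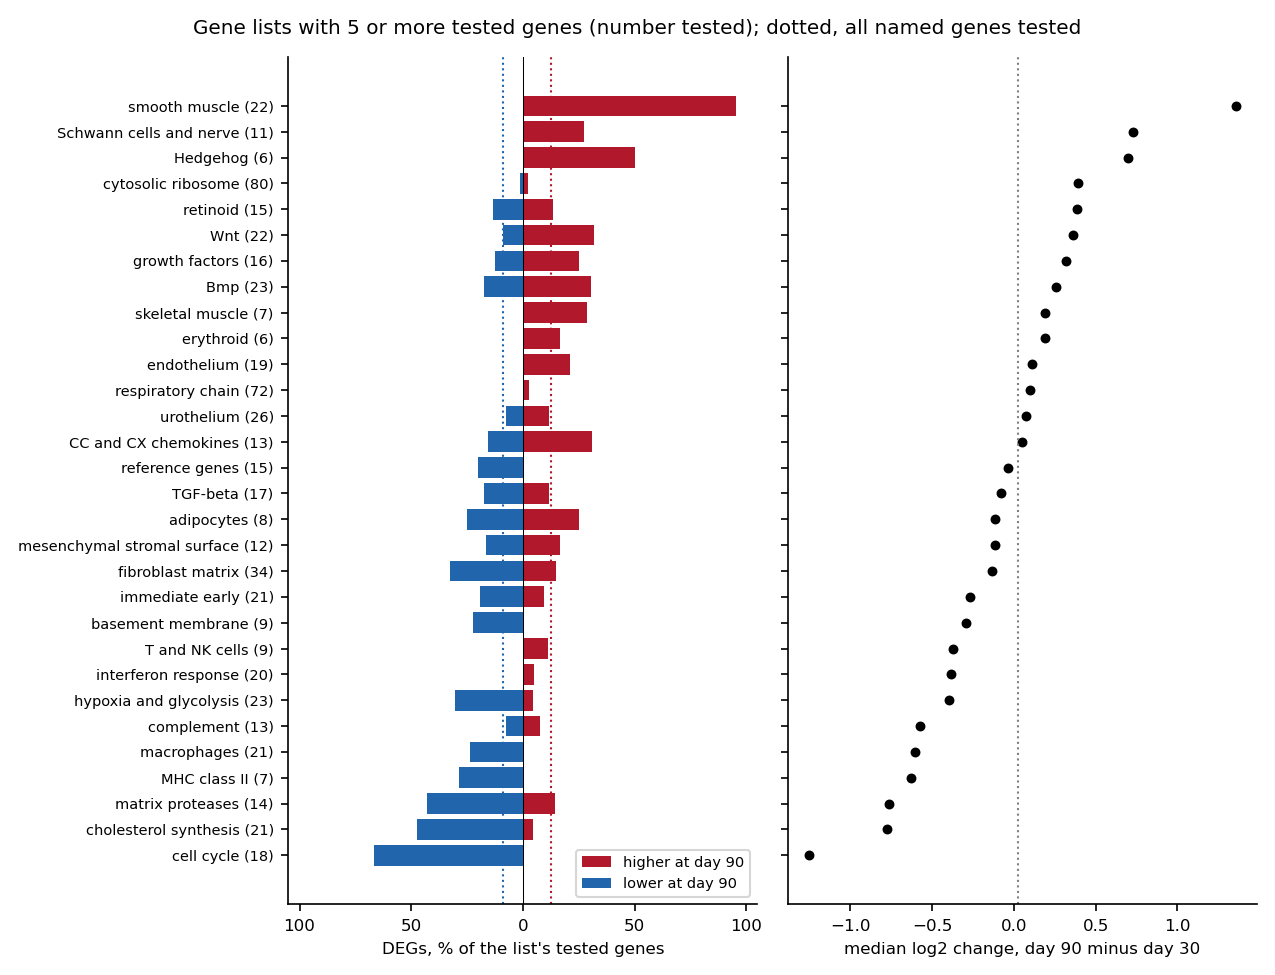
Gene lists with 5 or more tested genes. Left, the share of the tested genes of each list (number tested in parentheses) that were DEGs, higher to the right and lower to the left in %; right, the median log2 change of each list, with all named genes dotted. Smooth muscle stands at 95.5% higher and a median of 1.36, cell cycle at 66.7% lower and a median of -1.25, and all named genes at 12.5% higher, 8.91% lower and a median of 0.02.

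Of 34 tested genes of fibroblast matrix 11 were lower (32.4%, against 8.91% of all named genes) and 5 higher (14.7%, against 12.5%). Fibronectin (Fn1), a main protein of provisional matrix, fell 3.33-fold, from levels of 4.24 to 5.47 (median 5.05) to levels of 1.54 to 4.05 (median 3.46), without overlap. Periostin (Postn), a matricellular protein of healing tissue, fell 3.24-fold, from a median of 1.71 (1.16 to 2.25) to 0.00 (-0.38 to 0.56). Elastin (Eln) fell 4.85-fold, from a median of 1.73 (0.78 to 2.27) to -0.60 (-2.48 to 0.65), and the collagen chain Col5a3 fell 4.30-fold. Fibrillin (Fbn1, -1.23) and the crosslinking enzymes Loxl1 (-1.09), Loxl2 (-0.73) and Plod2 (-1.23) fell as well. The 5 higher genes were Prelp (1.67), Ogn (1.30), Aspn (1.06) and Dcn (0.97), which encode small leucine-rich proteoglycans, and Fbln5 (0.91), which is needed for elastic fibers. Prelp rose from a median of 0.16 (-0.03 to 0.67) to 1.87 (1.24 to 2.33), without overlap. Probes of the fibrillar collagens were saturated on many arrays. Col1a1 was at 0.07 with saturation on 12 arrays, -0.25 after quantile normalization and -0.04 after normexp correction, and its other probe was a DEG with -0.75. Col3a1 was at -0.25, and tenascin C (Tnc) at 0.01. Of 9 basement membrane genes 2 were lower, among them Col18a1 (-1.31), and Col4a1 (-0.42), Lama5 (0.05) and Lamb2 (0.39) were not DEGs.

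Of 14 tested genes of matrix proteases and their inhibitors 6 were lower (42.9%, against 8.91% of all named genes) and 2 higher (14.3%, against 12.5%). Matrilysin (Mmp7), a protease of injured epithelium, had the largest of these changes, a 19.2-fold fall from a median of 2.88 (2.24 to 5.67) to -0.82 (-3.96 to 1.32), without overlap, with saturation on 2 arrays (log2 fold change -4.26, standard error 0.698, limma adjusted p = 7.31e-05). Cathepsin K (Ctsk) fell 3.36-fold and the membrane protease Mmp14 by 1.23. The inhibitor Timp1 fell 2.97-fold, from a median of 4.12 (3.65 to 4.65) to 2.85 (1.33 to 2.96), while Timp3 rose by 0.93 and Timp4 by 1.70, from a median of -3.37 to -1.26. Mmp2 was at -0.19, and its dimmer probe was a DEG with -0.76. Mmp3, Mmp9 and Mmp13 were well above background on all arrays of day 30 and on 4, 6 and 4 arrays of day 90 and were not tested. Serpine2, an inhibitor of thrombin and plasminogen activators outside the list, fell 5.30-fold, from a median of 0.16 to -2.25.

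Several metabolic groups moved mostly one way. Of 21 genes of cholesterol synthesis 10 were lower (47.6%, against 8.91% of all named genes) and 1 higher (4.76%, against 12.5%), with a median of -0.78. Squalene epoxidase (Sqle) fell 2.77-fold, from a median of 1.65 (1.08 to 2.72) to 0.39 (-0.38 to 1.31). The HMG-CoA synthase Hmgcs1 fell 2.38-fold, from a median of 2.91 to 1.80, and Msmo1, Insig1 and Idi1 fell by 1.27, 1.24 and 1.19. Nsdhl, an enzyme of the later steps, rose by 0.74. When arrays were scaled to the median of their gene spots 6 genes of the list were lower. Of 23 genes of hypoxia and glycolysis 7 were lower (30.4%, against 8.91% of all named genes) and 1 higher (4.35%, against 12.5%). The glucose transporter Slc2a1 fell 2.02-fold, from a median of 2.39 (1.72 to 2.69) to 1.26 (0.64 to 1.73), Hk2 fell 2.21-fold, Pgk1 1.88-fold and Ldha 1.58-fold, while Aldoc rose 2.43-fold. With scaling to the median of gene spots 4 genes of the list were lower and 3 higher. The insulin-responsive glucose transporter Slc2a4 of muscle and fat rose 4.60-fold, from levels of -1.78 to -0.35 (median -0.81) to levels of 0.72 to 2.05 (median 1.34), while Lpl fell 3.00-fold and Fabp4 2.09-fold, so that the 8 tested adipocyte genes counted 2 higher and 2 lower.

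Among the largest rises of all genes were enzymes and carriers outside these groups. Transthyretin (Ttr), a carrier of thyroxine, had the largest, from levels of -5.21 to 0.41 (median -2.36) to levels of 0.01 to 3.42 (median 0.73), a 12.6-fold rise (log2 fold change 3.65, standard error 0.700, limma adjusted p = 3.13e-04) with a small overlap. The flavin monooxygenase Fmo2 rose 6.32-fold, the aldehyde dehydrogenase Aldh3a1 6.06-fold and Cyp1a1, a target of the aryl hydrocarbon receptor, 5.57-fold. Fmo2 had levels between -2.17 and -0.27 at day 30 and between 0.09 and 2.47 at day 90, while those of Cyp1a1 overlapped (-4.43 to 0.27 and -0.64 to 1.82). The glycogen synthase Gys2 rose 7.45-fold and fructosamine 3-kinase Fn3k 6.71-fold, from a median of -3.12 (-4.52 to -1.95) to -0.53 (-0.77 to 0.15). Several others are known from excitable cells. The neurokinin receptor Tacr2, by which tachykinins contract smooth muscle, rose 7.65-fold, from levels of -2.17 to 0.56 (median -0.01) to levels of 2.02 to 3.53 (median 2.53). Hspb6, a small heat shock protein of muscle, rose 5.89-fold, from a median of 0.05 (-0.79 to 0.57) to 2.44 (2.02 to 3.44). The sodium/calcium/potassium exchanger Slc24a3, the calmodulin-binding Pcp4, the G protein subunit Gnao1, Rgs7bp and Asic4 rose between 5.22-fold and 6.22-fold.

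Signaling genes changed in both directions. Of 6 tested Hedgehog genes 3 were higher (50%, against 12.5% of all named genes) and 0 lower, with a median of 0.70. The ligand Ihh was 4.00-fold higher, with levels from -4.88 to 0.37 at day 30 (median -0.96) and from -0.19 to 1.27 at day 90 (median 0.49). The target Gli1 was 1.76-fold higher (adjusted p = 0.00922), and Disp1, which releases the ligands, 1.67-fold. The calls of Ihh and Gli1 were lost without single arrays of either day and without the filter, when 1 gene of the list was higher. That of Ihh was also lost after quantile normalization (limma adjusted p = 0.0101). That of Gli1 was also lost with the replicate number as a block (limma adjusted p = 0.0203) and with the 75th percentile taken over detected probes (limma adjusted p = 0.0119). The receptors Ptch1 (0.66, limma adjusted p = 0.0618) and Smo (0.45, limma adjusted p = 0.0166) were not DEGs. The other 13 genes of the list on the array were not tested. Of these, 2 were well above background on all arrays of day 30 and none of day 90, and 8 on all of day 30 and some of day 90. The share of higher genes in this list therefore leaves out genes that were dim only at day 90. Of 22 tested Wnt genes 7 were higher (31.8%, against 12.5% of all named genes) and 2 lower (9.09%, against 8.91%). Another 22 of the 44 on the array were not tested. Of these, 2 were well above background on all arrays of day 30 and none of day 90, and 9 on all of day 30 and some of day 90. Without a filter on dim probes 4 Wnt genes were lower. With probes well above background on all arrays of 1 day 4 were lower as well. The inhibitor Nkd2 rose 3.72-fold, from a median of 0.28 (-0.46 to 0.71) to 2.14 (1.64 to 2.73), the potentiator Rspo3 2.48-fold and the antagonist Dkk2 2.38-fold, while Ccn4 fell by 1.05 and Frzb by 0.86, and Wnt5a (0.52) and Wnt2b (0.10) were not DEGs. Wnt16, a gene picked after its values were seen, was well above background on all arrays of day 30 and none of day 90. It was 5.54-fold lower by the estimate used for dim cell cycle genes, without a test.

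Of 23 Bmp genes 7 were higher (30.4%, against 12.5% of all named genes) and 4 lower (17.4%, against 8.91%). The ligands Bmp2, Bmp5 and Bmp7 rose by 0.95, 1.27 and 0.87 and the antagonist Chrdl1 by 1.94, while the regulators Bmper and Fst fell by 1.60 and 1.27, and Bmp4 was at 0.22. Bmp2 had levels between -0.16 and 0.36 at day 30 and between 0.48 and 2.13 at day 90, with replicate 3 the highest. In the TGF-beta list 2 of 17 genes were higher (11.8%, against 12.5% of all named genes) and 3 lower (17.6%, against 8.91%). Without the 3 arrays that stood apart 4 were higher. The activin subunits Inhba and Inhbb fell 3.97-fold and 2.84-fold, Inhbb from levels of -0.97 to -0.69 to levels of -2.65 to -2.08, and Tgfbi rose 2.54-fold, from a median of 2.78 to 4.19, while Tgfb1 was at -0.56 and Tgfb3 at 0.56 with adjusted p of 0.0344 and 0.0234. Among 16 tested growth factors and binding proteins 4 were higher (25%, against 12.5% of all named genes) and 2 lower (12.5%, against 8.91%). Another 16 on the array were not tested. Of these, 1 was well above background on all arrays of day 30 and none of day 90, and 8 on all of day 30 and some of day 90. Without a filter on dim probes 4 of the list were lower, and 5 with probes well above background on all arrays of 1 day. Fgf2 rose 2.63-fold, from a median of -2.88 (-3.35 to -2.37) to -1.43 (-2.22 to -0.87), Igfbp3 2.69-fold, Igfbp6 2.42-fold and Igf2 2.07-fold, and Igfbp4 and Igfbp7 fell by 0.87 and 0.61, the latter with a call lost in 4 of 16 fits without a single array, while 0 were lower with scaling to the median of gene spots. Of 21 immediate early genes 4 were lower (19%, against 8.91% of all named genes), among them Dusp5 (-1.10) and Myc (-0.78). The 2 higher genes (9.52%, against 12.5%) were Jun (0.67) and Klf2 (0.93), whose calls were both lost without a filter on dim probes. The count of lower genes was 2 after quantile normalization, without the 3 arrays that stood apart and in 8 of 16 fits that left out a single array.

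Markers of other cell types were checked in the same way. For Schwann cells and nerve 3 of 11 tested genes were higher (27.3%, against 12.5% of all named genes) and 0 lower, with a median of 0.73. After quantile normalization 5 were higher, after normexp correction 6 and with scaling to the median of gene spots 8. The Schwann cell transcription factor Sox10 rose 1.85-fold, from levels of -3.42 to -2.36 to levels of -2.31 to -1.49 without overlap, and peripherin (Prph) 2.03-fold, and the Prph call was lost without a filter and with the replicate number as a block. Of 19 endothelial genes 4 were higher (21.1%, against 12.5% of all named genes) and 0 lower. The higher ones were Angpt1 (1.05), Emcn (1.01), Cldn5 (0.96) and Flt4 (0.88), with Pecam1 at -0.02, Kdr at -0.26 and Vwf at -0.43. Without the 3 arrays that stood apart or with scaling to the median of gene spots 8 endothelial genes were higher. Of 7 genes of skeletal muscle Ckm rose 4.23-fold, and Tnnc2 was 2.02-fold higher with a call that was lost in 10 of 16 fits without a single array, after quantile normalization, without the 3 arrays that stood apart and with all 64 arrays in the fit (adjusted p = 0.0818), while Acta1 was at -0.10. Of 8 genes of the accessory sex glands, which lie next to the bladder, 0 passed the filter, but some were detected on many arrays. Andpro was well above background on 7 arrays of each day (mean levels -1.10 and -2.63). Sbp was so on 8 arrays of day 30 and 5 of day 90 (mean levels -0.57 and -3.655), and Pbsn on 5 and 1. Of the surface markers used for mesenchymal stromal cells Cd44 fell by 0.93, with another of its probes at -0.12, Mcam rose by 1.00, while the calls of Vcam1 (-0.69) and Cd34 (0.63) were lost in 7 and 2 of 16 fits without a single array, that of Vcam1 also after quantile normalization and without the 3 arrays that stood apart, and that of Cd34 with all 64 arrays in the fit. In all 8 of 12 tested genes were not DEGs, among them Thy1 (-0.14) and Itgb1 (0.17). The mesothelial marker Msln was at -0.94 (adjusted p = 0.00525), a call lost in 5 of 16 fits without a single array and with the replicate number as a block, and Wfdc18, a secreted protein with a WAP domain outside the lists, fell by 2.47 with an adjusted p of 0.00507 that was above 0.01 in 5 of 16 fits without a single array. Of 6 erythroid genes Ahsp rose by 1.37 and Hbb was at 0.10 (-0.21 after quantile normalization). Of 15 tested retinoid genes 2 were higher, with Rxrg at 0.99, and 2 lower, with Rarres1 at -0.70. The call of Rarres1 was lost in 10 of 16 fits without a single array and after quantile normalization. Without the 3 arrays that stood apart 4 retinoid genes were higher. Another 6 on the array were not tested. Without a filter on dim probes 4 retinoid genes were lower, and 4 with probes well above background on all arrays of 1 day. T, B and mast cells had 1 of 9, 1 of 3 and 0 of 3 tested genes higher and 0 lower, but 22 of 31, 10 of 13 and 8 of 11 of their genes on the array were not tested. Of the 22 T and NK cell genes left out, 1 was well above background on all arrays of day 30 and none of day 90. Another 15 were so on all arrays of day 30 and some of day 90. Without a filter on dim probes 3 T and NK cell genes were higher and 4 lower. With probes well above background on all arrays of 1 day 4 were lower.

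Reference genes and ribosomal genes were examined beside these groups. Of 15 reference genes 0 were higher and 3 lower (Pgk1, Gusb and Ywhaz), with a median of -0.04. Tbp was at -0.04 and Sdha at 0.11, while Actb was at 0.37 with saturation on 15 arrays and at -0.01 after quantile normalization. The 80 genes of the cytosolic ribosome had a median of 0.39 with 2 higher and 1 lower, and 68 of them were saturated on 1 array or more. For 33 of the 80 every array of day 90 was above every array of day 30, and for 2 below. Of all 8231 named genes tested these were 997 and 751. The part of saturation and scaling in this shift was not tested. Of 72 genes of the respiratory chain 2 were higher and 0 lower, with a median of 0.10.

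The 2 other follow-up times with ASCs were set beside these values without a test. Relative to the mean of day 30, the mean level of the 22 smooth muscle genes was -0.57 ± 0.408 (SD, n = 8) at 7 days, 1.35 ± 0.366 at 90 days and 1.02 ± 0.696 at 180 days. That of the 18 cell cycle genes was 0.00 ± 0.258 at 7 days, -1.33 ± 0.215 at 90 days and -1.15 ± 0.651 at 180 days, when 1 array lay at 0.09. For urothelium the means were -0.71 ± 0.355 at 7 days, -0.04 ± 0.371 at 90 days and -0.41 ± 0.541 at 180 days, and for macrophages 0.38 ± 0.192, -0.78 ± 0.772 and -0.57 ± 0.483. Cholesterol synthesis was at -0.37 ± 0.227 at 7 days, below day 30, and at -0.63 ± 0.363 and -0.73 ± 0.425 at 90 and 180 days. The arrays of 7 and 30 days share a scan date, as do those of 90 and 180 days.

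**Figure D4:**
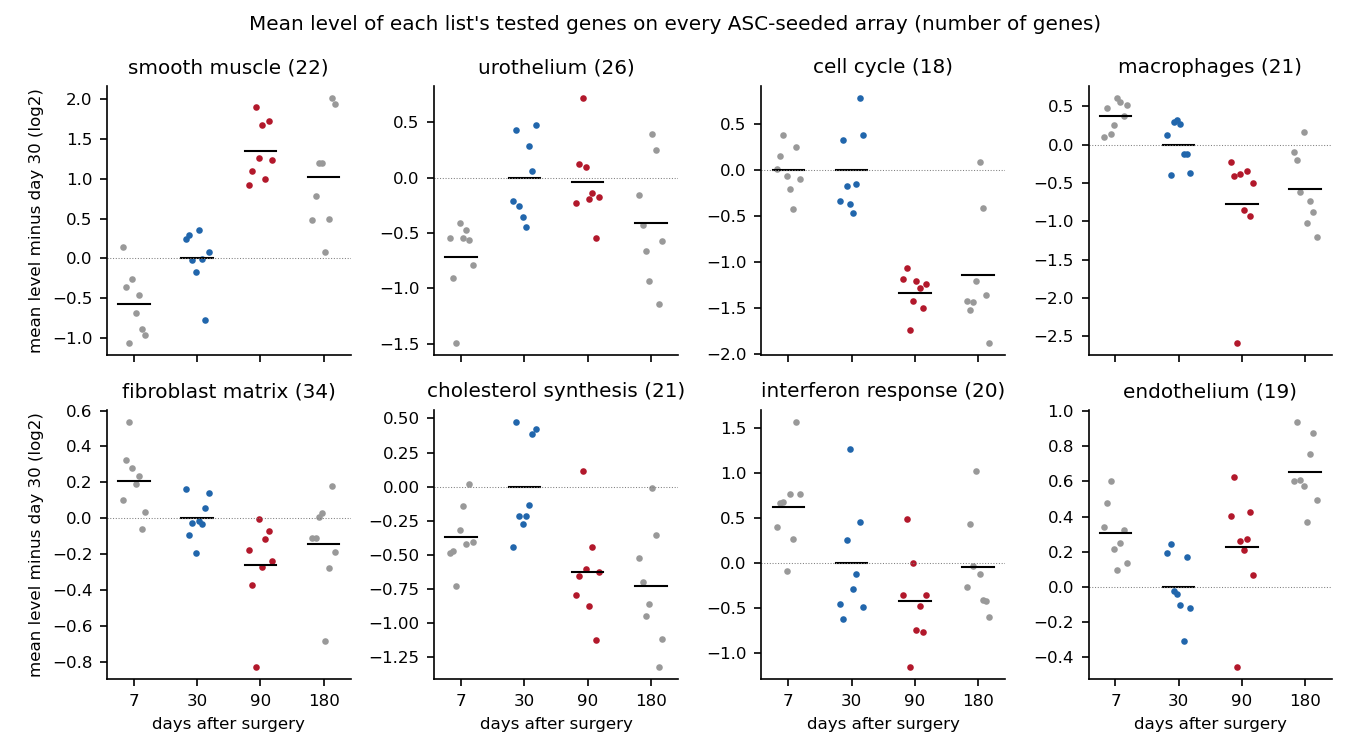
Mean level of the tested genes of selected lists (number of genes in parentheses; horizontal lines, means) on the arrays of BAM seeded with ASCs, by days of follow-up (7, 30, 90 and 180), as the difference from the mean of day 30 (vertical axes, log2). The arrays of day 90 lie above those of day 30 for smooth muscle (0.92 to 1.90 against -0.78 to 0.36) and below them for the cell cycle (-1.75 to -1.07 against -0.46 to 0.79).

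The change was compared with that of unseeded grafts by the difference of the changes, the change with ASCs minus the change with BAM only over the same days. The scan date is shared by the grafts of a day and cancels in this difference, the slide does not. On the arrays of BAM only at day 90 the local background was 321 to 366 and up to 1293 gene spots were saturated. Replicate 8 of this group had 35.5% of gene spots well above background, against 53.0% to 58.5% on its other arrays. Spike-in levels after scaling were 0.81 to 1.28 higher at day 90 with BAM only, against 0.41 to 1.26 with ASCs. The part of such offsets in the difference of the changes was not tested. Among 8749 probes well above background on all 32 arrays 1204 passed the thresholds by limma, 774 with a positive and 430 with a negative difference, and 597 passed when probes with a saturated spot were left out, 210 positive and 387 negative. Among 5345 named genes 407 passed (7.61%), of which 283 were positive and 124 negative, or 146 and 120 of those without a saturated spot. Of the 80 ribosomal genes 69 were positive and 1 negative, all of them with a saturated spot on 1 array or more.

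For smooth muscle, cell cycle and macrophage genes the median change had the same sign with ASCs and with BAM only. Over the genes tested on all 32 arrays the median change was 1.36 with ASCs and 1.01 with BAM only for 20 smooth muscle genes, -1.15 and -0.90 for 6 cell cycle genes, -0.78 and -1.16 for 20 macrophage genes and -0.43 and -0.74 for 18 genes of hypoxia and glycolysis. In smooth muscle Actg2, Myh11 and Tagln had a positive difference, and each of the 3 was saturated on some arrays, while 0 of the 6 cell cycle genes passed. For the 16 genes of cholesterol synthesis the medians were -0.75 with ASCs and -0.07 with BAM only, and Hmgcs1 and Msmo1 passed. Hmgcs1 had means of 3.10 ± 0.518 (SD, n = 8) and 1.84 ± 0.392 with ASCs and of 1.86 ± 0.240 and 1.79 ± 0.4995 with BAM only at the 2 days, a difference of -1.18 (standard error 0.291, limma adjusted p = 0.00215). Of the growth factor list 4 genes had a negative difference, among them Ctf1, Igfbp4 and Igfbp7. Igfbp7 changed by -0.61 with ASCs and by 0.87 with BAM only.

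Elastin fell with ASCs by 2.28, from 1.68 ± 0.507 to -0.60 ± 0.892, and changed by -0.52 with BAM only, from 0.83 ± 0.391 to 0.31 ± 0.497, a difference of -1.76 (standard error 0.408, limma adjusted p = 0.00123). The most negative difference among genes without saturation was that of Pkib, an inhibitor of protein kinase A, which fell with ASCs by 0.72 and was 1.20 higher at day 90 with BAM only (difference -1.92, limma adjusted p = 4.66e-11). Mcc (-1.80), Krt80 (-1.70), the vesicular transporter Slc32a1 (-1.54), Etv3 (-1.52) and Ppp1r35 (-1.42) followed. On the positive side Nthl1, a DNA glycosylase, changed by 0.74 with ASCs and -0.60 with BAM only, a difference of 1.35 (standard error 0.234, limma adjusted p = 5.50e-05). The glutathione transferase Gsta3 rose by 2.33 with ASCs and changed by 1.15 with BAM only (difference 1.19, adjusted p = 0.00171 by limma). The chemokine Cxcl16 was at 0.06 with ASCs and -1.06 with BAM only, and the cholesterol exporter Abca1 at 0.85 and -0.27. Rcan1 (1.18), Hltf (1.13) and Eloa (1.12) also passed.

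**Figure D5:**
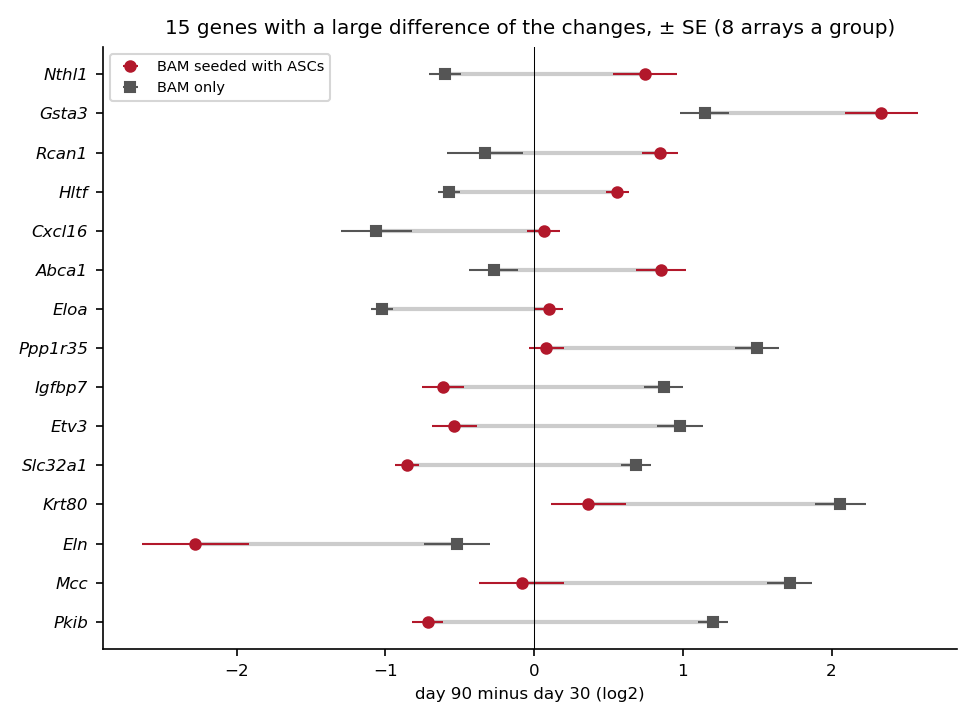
Change from day 30 to day 90 (horizontal axis, log2) with ASCs (circles) and with BAM only (squares), ± standard error over 8 arrays a group and day, for 15 genes with large differences of the changes and no saturated spot. Pkib was at -0.72 with ASCs and 1.20 with BAM only, and Nthl1 at 0.74 and -0.60.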

How the data were processed

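RNA was hybridized to Agilent 8x60K rat arrays with 1 color (Cy3), and per the file headers the deposited intensity values were extracted with Agilent Feature Extraction 12.0.1.1. The authors thus supplied processed signals without scaling between arrays, and the deposited series matrix holds the same intensity values after rounding, except for 3 arrays of 7 days, where it is on another scale and was not used. Groups were taken from the sample labels. Control spots and outlier spots were left out, spots of a probe were averaged, and log2 signals minus the 75th percentile of the array entered a linear model of limma 3.58.1 under R 4.3.3 (lmFit and eBayes, 8 arrays a group, Benjamini-Hochberg adjustment), and the thresholds of the methods, more than 1.5-fold at an adjusted p under 0.01, defined DEGs. The difference of the changes was a contrast over 32 arrays. Of 30367 gene probes 18758 were named through RefSeq accessions on GRCr8. The fit was tested on simulated data. Named were the 15 largest rises and falls among DEGs without saturation, the defining genes of each list with up to 3 further DEGs, the 8 largest differences of each sign and the reference genes, and other genes named with values were picked from the lists after their values were seen. Some genes that the rule names are not reported here. The members and lists were chosen with earlier results of these data known. Alternatives were other scalings, filters, background correction, tests, thresholds, the replicate number as a block, arrays left out in turn, and, chosen after seeing the data, 3 arrays left out together.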

Additional observations from a re-analysis of the deposited data

Results flagged for a closer look

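Among the levels of the named genes reported here, 50 groups of 8 arrays had a highest or lowest array far from the others, with a gap to the nearest array that passes Dixon's limit for 8 values. Chance alone gives such a gap in about 1 group in 20. Most were on replicate 3 of day 90. Its level was the lowest of its group and far from the others for Serpine2 (-3.67), Eln (-2.48), Fn1 (1.54), Timp1 (1.33), Cd68 (-1.51), Csf1r (-2.60), Gpnmb (0.37), Hbb (4.84), C1s (1.28), Cfb (-0.26), Cxcl12 (0.25), Bmp4 (-0.70), Igf1 (3.08), Cd44 (0.91), RT1-DMb (-1.66), Col18a1 (-1.27), Cdc45 (-3.55), C6 (-3.33), Cldn5 (-1.11), Col5a3 (-1.68), Trem2 (-2.26), Tyrobp (0.97), Ctsk (0.75), Rarres1 (-0.50), Nthl1 (-0.99) and Hltf (0.35). It was the highest for Upk2 (6.23), Krt20 (2.49), Wnt5a (-0.73), Bmp2 (2.13), Ndufb10 (4.49) and Gsta3 (2.45). Replicate 7 of day 90 was the lowest for Egr1 (-2.11). At day 30, replicate 7 was the lowest for Slc24a3 (-2.31), Myh11 (3.50), Smtn (1.92), Myocd (-3.80), Tagln (3.00) and Synm (1.97), and replicate 1 was the highest for Cdh5 (-0.11), Ptch1 (-0.72), Cd34 (-2.87), Tbp (-1.58), Pax5 (-1.09), Inhbb (-0.69), Rspo3 (-1.33) and Etv3 (2.09). Single genes stood apart on replicate 4, Mx1 (3.88), and replicate 8, Ndufb10 (3.29), both high, and on replicate 2, Hltf (-0.25), which was low. Replicate 3 of day 90 also had the lowest mean over the macrophage genes, -2.59 relative to day 30.

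The change from day 30 to day 90 was not the same in seeded and unseeded grafts, by the limma contrast with the thresholds above, for named genes as follows, given as the log2 difference of the changes. It was positive for Myh11 (1.28), Actg2 (0.97), Col1a1 (0.84), Col1a2 (1.11), Col3a1 (0.63), Actb (1.15), Tgfbi (0.93), Rpl5 (0.79), Cox4i1 (0.98), Tagln (1.105), Nthl1 (1.34), Gsta3 (1.19), Rcan1 (1.18), Hltf (1.13), Cxcl16 (1.13), Abca1 (1.12) and Eloa (1.12). It was negative for Eln (-1.76), Hmgcs1 (-1.18), Msmo1 (-0.99), Pkib (-1.92), Mcc (-1.80), Krt80 (-1.70), Slc32a1 (-1.54), Etv3 (-1.52), Igfbp7 (-1.48) and Ppp1r35 (-1.42). Of the positive ones Myh11, Actg2, Col1a1, Col1a2, Col3a1, Actb, Rpl5, Cox4i1 and Tagln were saturated on some of the 32 arrays, and the part of saturation in these differences was not tested.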

How the results depend on the processing

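The number of DEGs at day 90 against day 30 was 6672 without a filter on dim probes (4013 higher, 2659 lower), 4687 with probes well above background on all arrays of 1 day (2833 lower), 1751 with 1 probe per gene (1025 and 726), 983 at a fold change above 2 (608 and 375) and 6212 without a fold threshold (3637 and 2575). The share of higher DEGs was 77.0% with scaling to the median of gene spots and 39.6% with the filter on 1 day. Without single arrays there were 2805 to 3108 DEGs, 1685 to 1974 higher and 1106 to 1200 lower, a share higher of 59.6% to 63.5%. Without the 3 arrays that stood apart, an alternative chosen after seeing the data, there were 2938 DEGs, of which 2654 were shared. The higher and lower genes of all lists together numbered 172, and 259 without a filter. The difference of the changes passed for 786 probes after quantile normalization (342 positive), 1812 without a filter (953 negative), 597 without saturated probes (210 positive), 387 with 1 probe per gene (274 and 113) and 570 at a fold change above 2 (371 and 199), with 815 negative ones under the filter on 1 group. Without single arrays it passed for 1144 to 1292 probes, 750 to 837 positive and 394 to 460 negative. The cause of these shifts was not tested, apart from the number of probes tested.

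Some genes that were not DEGs changed sign. After quantile normalization the log2 change was -0.10 for Upk1b, -0.0349 for Actg2, -0.25 for Col1a1, -0.21 for Hbb, 0.0047 for Thy1, 0.0528 for Tbp and -0.0066 for Actb. With scaling to the median of gene spots it was 0.0238 for Acta1, 0.10 for Pecam1, 0.0869 for Tbp and 0.0411 for Mcc with ASCs. After normexp correction it was -0.0442 for Col1a1, -0.0376 for Lama5, 0.0693 for Thy1, 0.10 for Tbp, -0.0161 for Cxcl16 and 0.0056 for Mcc. Without the 3 arrays it was 0.0279 for Cd163, 0.15 for Pecam1, 0.0627 for Ccl19, 0.24 for Cxcl12 and 0.0061 for Thy1. Without single arrays the change ran from -0.21 to 0.00047 for Acta1, from -0.0757 to 0.14 for Tnc, from -0.0024 to 0.15 for Lama5, from -0.11 to 0.10 for Pecam1, from -0.0657 to 0.19 for Ccl21, from -0.23 to 0.19 for Cxcl12, from -0.0041 to 0.25 for Wnt2b, from -0.0582 to 0.0016 for Tbp and from -0.20 to 0.11 for Mcc.

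With the replicate number as a block there were 2774 DEGs (1711 higher, 1063 lower) and 1211 probes passed the difference of the changes. The number is the position on the slide, and samples of the same number did not deviate together, with correlations of their deviations from the group means of -0.29 to 0.12 (mean -0.06), against 0.01 for other numbers, so that only 1 of 8 pairs was above 0.1 and the samples were not treated as pairs.

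Signal over background limits the comparison at day 90, when 638 genes that were well above background on all arrays of day 30 were so on no array, and saturation limits it for the brightest probes, 560 of which were saturated on 1 array or more. Day, slide and scan date cannot be told apart. The labels name each array a biological replicate, and p-values measure the spread between these replicates on 1 slide a group.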
